A study of Mus musculus with 15 samples.

Results

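The mitochondrial ribosome is described here through the 76 genes whose symbols begin with Mrpl or Mrps followed by a number, pseudogenes left out, of 23359 genes in the deposited tables. They were chosen by symbol alone, and all 76 were tested in each of the 10 comparisons. By symbol the family held 47 Mrpl genes, counted here as large subunit, and 29 Mrps genes, counted as small subunit, spread over 17 chromosomes. The proteins of Mrps30 and Mrps18a are known to sit in the large subunit despite their symbols. Mrp63, the older symbol of a further large-subunit gene, falls outside the rule. Mrps36 is inside it by name, although its protein is better known as part of the 2-oxoglutarate dehydrogenase complex.

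The RNA came from leukemia stem cells, or LSC, of mice in which the fusion oncogenes BCR-ABL and NUP98-HOXA9 drive a blast crisis of chronic myeloid leukemia. LSC were taken 12 days after transplantation of leukemia cells from the bone marrow (group BM), the spleen (group SPL), the peripheral blood (group BL) and the gonadal adipose tissue (group AT). The fifth group holds the normal counterparts of these cells from normal bone marrow (NBM), although the labels repeat the leukemia model and the transplantation for it. The mice were females aged 3 months, and each group had 3 libraries, 15 in all. The labels name no sort gate and do not say whether the 3 libraries came from separate mice, so the p-values may measure technical spread. Each level below is the pooled FPKM that the authors computed over the 3 libraries, the fragments of a gene scaled by its length and by the size of the library. No value of a single library was used here, and therefore no SD is given. A gene counts as called where the authors' deposited table of a comparison marks it as tested with q below 0.05, and each fold is stated as the first group over the second.

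Mitochondria keep their own ribosome, built from RNAs encoded in mitochondrial DNA and from proteins that are encoded in the nucleus, made in the cytosol and imported. The small subunit reads the message and the large subunit joins the amino acids. The ribosome makes a handful of core subunits of the respiratory chain and ATP synthase, so it is tied to oxidative phosphorylation, on which leukemia stem cells are often reported to rely.

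Promoter windows from RefSeq (GRCm38.p6, the same coordinates as mm10), which run from 250 bases before to 50 bases after a gene's start, show the sequence type of the family. The table held 67 of the 76 genes, and Mrpl4, Mrpl13, Mrpl15, Mrpl19, Mrpl38, Mrpl54, Mrps28, Mrps34 and Mrps35 are named only. Windows of 5 genes are printed, 5′ to 3′ on the gene's strand, with the 7-letter motifs CCGGAAG (ETS family), ATGGCGG (core of the YY1 site) and GCATGCG (core of the NRF1 site), or their reverse complements, in capitals. Mrps27 (chr13:99344536-99344835, plus strand) is shown as the gene with the widest range of levels. Mrpl43 (chr19:45006393-45006692, minus strand) is shown as one of the flattest, and Mrpl33 (chr5:31613701-31614000, plus strand) as the most abundant on average. Mrps11 (chr7:78782881-78783180, plus strand) and Mrpl46 (chr7:78783040-78783339, minus strand) are the 2 family members that face each other head to head, and their windows share 141 bases.
Mrps27: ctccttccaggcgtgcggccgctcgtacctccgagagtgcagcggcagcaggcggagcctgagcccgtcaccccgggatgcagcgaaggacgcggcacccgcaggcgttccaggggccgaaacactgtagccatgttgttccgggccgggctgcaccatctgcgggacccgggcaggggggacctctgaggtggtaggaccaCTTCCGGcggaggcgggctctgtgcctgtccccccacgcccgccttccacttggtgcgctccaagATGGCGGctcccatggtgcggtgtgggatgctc
Mrpl43: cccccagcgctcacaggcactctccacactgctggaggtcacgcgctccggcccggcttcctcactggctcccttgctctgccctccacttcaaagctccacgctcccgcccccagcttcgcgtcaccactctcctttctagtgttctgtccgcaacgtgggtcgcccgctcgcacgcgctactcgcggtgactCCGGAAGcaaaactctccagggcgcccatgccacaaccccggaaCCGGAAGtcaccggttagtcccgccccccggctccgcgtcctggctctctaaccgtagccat
Mrpl33: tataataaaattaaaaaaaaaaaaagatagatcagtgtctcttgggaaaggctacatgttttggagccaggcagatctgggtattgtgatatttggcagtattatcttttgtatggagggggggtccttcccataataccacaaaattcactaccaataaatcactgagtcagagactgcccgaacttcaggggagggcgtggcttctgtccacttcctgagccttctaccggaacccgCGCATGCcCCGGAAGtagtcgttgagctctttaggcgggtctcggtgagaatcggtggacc
Mrps11: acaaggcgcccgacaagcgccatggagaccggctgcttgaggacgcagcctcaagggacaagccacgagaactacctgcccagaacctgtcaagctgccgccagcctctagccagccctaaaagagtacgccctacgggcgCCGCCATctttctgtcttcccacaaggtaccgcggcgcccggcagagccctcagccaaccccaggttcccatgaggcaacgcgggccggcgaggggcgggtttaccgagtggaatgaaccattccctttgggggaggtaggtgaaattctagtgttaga
Mrpl46: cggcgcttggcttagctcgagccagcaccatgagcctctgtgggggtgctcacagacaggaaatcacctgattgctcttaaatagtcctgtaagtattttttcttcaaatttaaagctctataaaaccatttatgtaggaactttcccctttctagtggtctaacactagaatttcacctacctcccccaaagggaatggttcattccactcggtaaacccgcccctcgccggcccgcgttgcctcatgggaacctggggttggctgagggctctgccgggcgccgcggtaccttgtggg

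The 67 genes had 73 windows, and a gene counts where any of its windows holds the motif. The ETS motif occurred on either strand in 24 of the 67 genes (35.8%). It occurred in 19.0% of the 9995 genes with a window that were tested in any comparison, and in 9.93% of all 27025 genes with a window. The YY1 core occurred in 13 (19.4%, against 8.72% and 4.69%) and the NRF1 core in 8 (11.9%, against 6.86% and 4.01%). The E-box CACGTG, which reads the same on both strands, occurred in 5 (7.46%, against 11.2% and 8.09%). Mrps27 held an ETS and a YY1 motif, Mrpl43 held the ETS motif at 2 places, and Mrpl33 held an NRF1 core and an ETS motif. The median GC content of the family's windows was 58.3%, beside 59.3% over the windows of tested genes. These are matches of letters, not bound sites.

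The family was expressed at intermediate to high levels in all 5 groups. Its median level was 13.8 FPKM in NBM, 13.2 in BM, 19.0 in SPL, 5.90 in BL and 6.34 in AT, while the median over 9630 genes that reached 1 FPKM in some group moved between 2.64 in AT and 3.99 in SPL. Summed over the 76 genes the level was 1241 FPKM in NBM, 1161 in BM, 1679 in SPL, 623 in BL and 630 in AT. The share of all estimated fragments that fell on the family was 0.410%, 0.375%, 0.461%, 0.190% and 0.235% in the same order. BL and AT thus stood together at the low end, and SPL at the high end. In these bulk samples, fewer cells of a type and less RNA per cell cannot be told apart.

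The order of the groups was shared by most genes. SPL held the highest level of 68 of the 76 genes, and the lowest level was in BL for 47 and in AT for 27. Both BL and AT lay below NBM, BM and SPL in 71 genes, the exceptions being Mrpl14, Mrpl54, Mrps15, Mrps24 and Mrps26. The shares of all genes with these orders were not computed. The median over the 9630 genes was also highest in SPL (3.99 FPKM). It was lower in BL (2.85) and AT (2.64) than in NBM (3.66) and BM (3.82). For 12 of the 76 genes the bounds that the authors deposited around each FPKM did not overlap between the low groups (BL and AT) and the other 3 groups. The share of all genes with such bounds was not computed, so this count cannot be called particular to the family. The 12 were Mrpl16, Mrpl19, Mrpl22, Mrpl35, Mrpl36, Mrpl42, Mrpl44, Mrpl49, Mrpl50, Mrps5, Mrps27 and Mrps31. The map of levels relative to NBM shows this order for each gene.

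**Figure D1:**
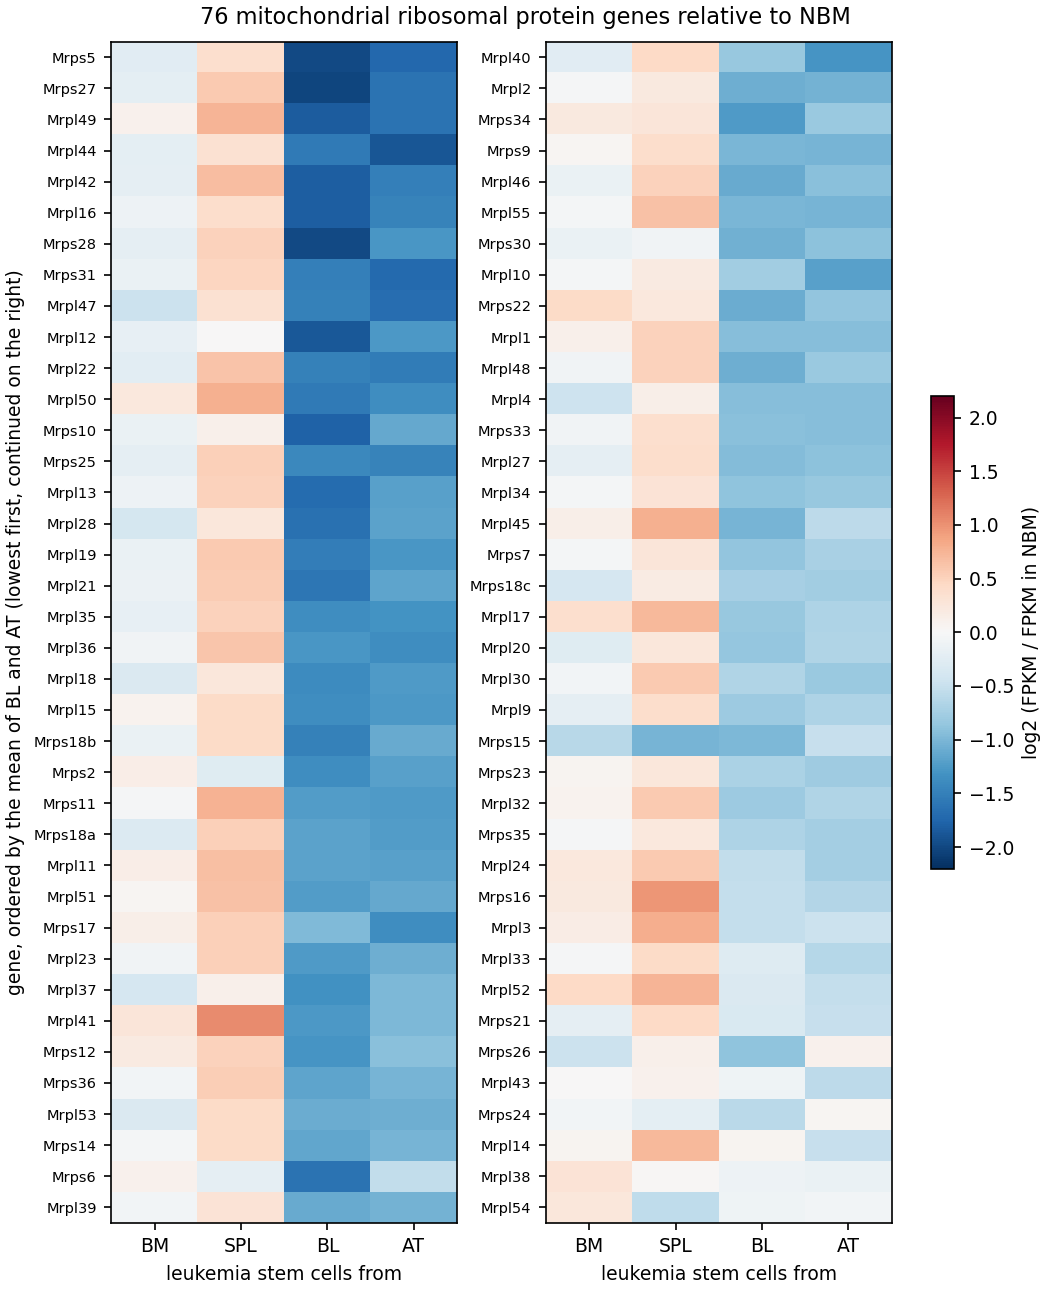
Colour map of the 76 mitochondrial ribosomal protein genes, 1 row per gene, in LSC from BM, SPL, BL and AT (columns); the colour is the log2 ratio of the pooled FPKM to that in NBM, and genes run from the lowest mean of BL and AT at the top left to the highest at the bottom right. BL and AT are blue, that is below NBM, in most rows, while BM is near white and SPL mostly pale red; Mrpl54, at the end, lacks the pattern.

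The most abundant member, Mrpl33 of the large subunit, stood at 63.6 FPKM in NBM, 62.4 in BM, 84.8 in SPL, 52.3 in BL and 41.3 in AT. Mrpl18, a protein of the central protuberance (the top of the large subunit), stood at 69.9, 55.8, 83.5, 26.9 and 29.3 FPKM in the same order. Mrpl33 was called in no comparison, whereas Mrpl18 was called lower in 5 of the 6 comparisons of BL and AT with NBM, BM and SPL. The exception was AT against BM, where its log2 fold was -0.93 (q = 0.101 in the authors' deposited table). Mrpl20, Mrps21, Mrpl42, Mrpl36, Mrpl30 and Mrpl28 completed the 8 highest. At the other end, Mrps26, Mrps35, Mrpl3, Mrps30 and Mrps24 had a mean below 1 FPKM over the 5 groups, and none of them was called in any comparison.

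The first comparison asked whether leukemic cells in the marrow differ from their normal counterparts. No member was called in BM against NBM in the authors' deposited Cuffdiff table, where 16% of all tested genes were called in either direction, and no member had an unadjusted p-value below 0.05. The median fold of the family was -0.06 on the log2 scale, beside -0.03 over all tested genes, with a median standard error of 0.346. The most negative fold was that of Mrps15, a 12S rRNA-binding protein of the small subunit, at -0.61, and the most positive that of Mrpl52 at 0.44 in the authors' deposited table. The smallest q-value of a member was 0.342. A fold that was not called is not shown to be absent: with this standard error, small changes cannot be seen.

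Spleen cells held the highest levels, but no member passed the test. In SPL against NBM no member was called, where 12.6% of all tested genes were called in either direction, and in SPL against BM none was called, where 2.69% were, both in the authors' deposited Cuffdiff tables. In each of these comparisons 2 members had an unadjusted p-value below 0.05, all of them higher in SPL. The family's median fold was 0.42 against NBM and 0.56 against BM, beside 0.11 and 0.12 over all tested genes. The sign of the fold was positive for 70 of the 76 genes against NBM. Mrps16, which in humans is mutated in a respiratory chain deficiency, had the smallest q-value: 25.8 FPKM in NBM and 50.9 in SPL gave a log2 fold of 0.98 (SE 0.441, q = 0.102) in the authors' deposited table. Mrpl41 had 5.07 FPKM in NBM and 10.4 in SPL (log2 fold 1.04, SE 0.521, q = 0.151 in the authors' deposited table). Mrpl41 overlaps Wdr85, which had 2.41 FPKM in NBM. SPL had the lowest total of estimated fragments on the authors' scale, 8.96e+06 beside 1.65e+07 to 1.96e+07 in the other groups. When the groups were scaled by their total estimated fragments, the family's median in SPL against NBM was 0.16, still positive.

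Circulating leukemia stem cells had lower levels across the family. In BL against NBM, 45 of the 76 genes (59.2%) were called lower and none higher in the authors' deposited table, where 22.9% of all tested genes were called lower. Against BM the count was 42 (55.3%, where 22.8% of all tested genes were called lower), and against SPL it was 51 (67.1%, where 23.1% were). None was called higher in either. The calls were also recomputed among genes at 1 FPKM or more in at least 1 of the 2 groups. Lower calls were then 45 of 71 members against NBM, 42 of 71 against BM and 53 of 71 against SPL. Of all genes tested with this filter, 26.9%, 27.3% and 28.8% were called lower. The family's median folds were -1.10, -1.05 and -1.51 on the log2 scale, while the medians over all tested genes were -0.36, -0.37 and -0.40. The fold was negative for 75, 75 and 74 of the 76 genes. Lower calls against NBM, BM and SPL alike were found for 37 genes, where 14.6% of the genes tested in all 3 had them, but these comparisons share the BL libraries and are not independent.

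Mrps27, a small-subunit protein with pentatricopeptide repeats, had the widest range. Its level was 13.3 FPKM in NBM, 11.6 in BM, 20.0 in SPL, 3.29 in BL and 4.33 in AT. BL and AT were low, their deposited bounds lay below those of the other groups, and SPL was highest. The log2 fold in BL against NBM was -2.02 (SE 0.378, q = 3.03e-06) and in BL against SPL -2.60 (SE 0.476, q = 1.65e-06) in the authors' deposited tables. Mrpl49, a mitochondria-specific protein of the large subunit, had 8.05 FPKM in NBM, 8.57 in BM, 13.5 in SPL, 2.27 in BL and 2.62 in AT. Its log2 fold in BL against BM, -1.92 (SE 0.472, q = 0.000662), was the most negative of the family in the authors' deposited table of that comparison. Each overlaps a gene on the opposite strand, Mrps27 with 6430562O15Rik (1.14 FPKM in NBM) and Mrpl49 with Syvn1 (1.37 FPKM in NBM). The sources used here do not say that counting used strand. In all, 9 members overlap another gene, the others being Mrpl19, Mrpl24, Mrpl41, Mrpl48, Mrpl53, Mrps6 and Mrps25.

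Mrpl42 had 46.8 FPKM in NBM, 40.7 in BM, 75.3 in SPL, 13.4 in BL and 16.6 in AT, the same order at a higher level. Mrps5, a small-subunit protein near the site where the message is decoded, had 11.8, 9.96, 15.2, 2.97 and 3.57 FPKM. Mrps28 had 24.9, 21.6, 35.2, 6.31 and 10.2 FPKM. Each of these genes was lower in BL than in NBM by 1.81 to 1.99 on the log2 scale in the authors' deposited table, and none of them was called in AT against BL.

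The median over all tested genes was itself below 0 in these comparisons. After each fold was centred on the median of all tested genes, 22 members were still called lower in BL against NBM, 19 in BL against BM and 36 in BL against SPL, where 14%, 13.5% and 14.5% of all tested genes were. A set of 14 genes kept their lower calls in BL against NBM, BM and SPL alike: Mrpl12, Mrpl13, Mrpl16, Mrpl19, Mrpl21, Mrpl42, Mrpl44, Mrpl49, Mrpl50, Mrps5, Mrps10, Mrps18b, Mrps27 and Mrps28. The share of all genes called lower in these comparisons alike after centring was not computed.

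**Figure D2:**
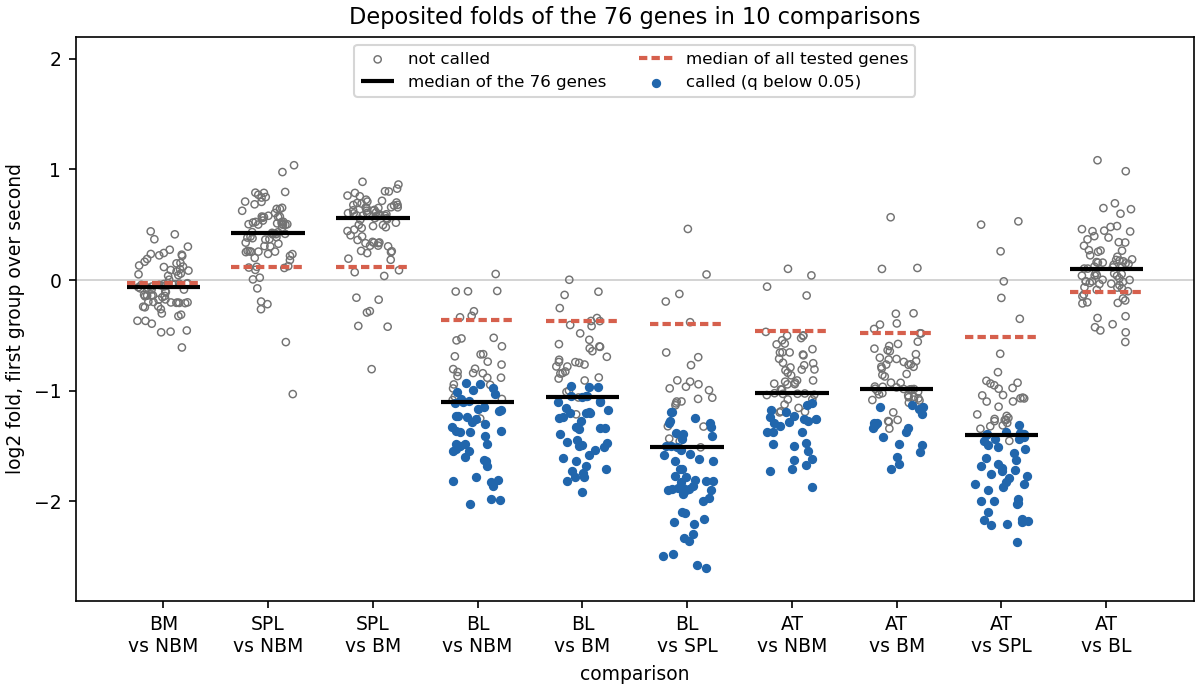
Deposited log2 folds of the 76 genes (points) in the 10 comparisons (horizontal axis, first group over second); filled blue points are called at q below 0.05, open points are not, the black bar is the family's median and the dashed red bar the median over all tested genes. The family lies lower than all genes in the 6 comparisons of BL or AT with NBM, BM or SPL, with medians from -0.98 to -1.51, and no point is filled in the other 4.

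Leukemia stem cells from adipose tissue had low levels as well, with fewer calls. In AT against NBM 25 of the 76 genes (32.9%) were called lower, where 15.5% of all tested genes were. In AT against BM 18 (23.7%) were called lower, where 15.5% were, and in AT against SPL 42 (55.3%), where 17.9% were. No member was called higher in any of these authors' deposited tables. The calls were also recomputed among genes at 1 FPKM or more in at least 1 of the 2 groups. Lower calls were then 27 of 71 members against NBM, 18 of 71 against BM and 45 of 72 against SPL. Of all genes tested with this filter, 20%, 20.3% and 24.7% were called lower, higher shares than without it. The family's medians were -1.02, -0.98 and -1.40 on the log2 scale, beside -0.46, -0.48 and -0.52 over all tested genes, and the median standard errors, 0.461, 0.454 and 0.529, were larger than in the matching comparisons of BL. After centring on the median of all tested genes, 2 lower calls were left against NBM, 1 against BM and 12 against SPL, where 6.56%, 5.11% and 6.95% of all tested genes were called lower. Most single-gene calls in AT against NBM and BM were thus lost with this change of scale.

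Mrpl44, a large-subunit protein with a ribonuclease III fold that is mutated in a human infantile cardiomyopathy, was the one gene whose 6 lower calls in BL and AT all remained under centring, upper quartile scaling and total count scaling. Its level was 19.7 FPKM in NBM, 17.1 in BM, 24.95 in SPL, 6.75 in BL and 5.38 in AT. The log2 fold in AT against NBM was -1.87 (SE 0.429, q = 0.00021), the most negative of the family in the authors' deposited table, and in BL against NBM it was -1.55 (SE 0.362, q = 0.00031). Mrps31 had 5.23 FPKM in NBM, 4.70 in BM, 7.27 in SPL, 1.85 in BL and 1.60 in AT, so that AT was its lowest group too. Mrps31 kept 3 of its 6 calls after centring.

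The 2 low groups were not told apart by the test. In AT against BL no member was called in the authors' deposited Cuffdiff table, where 6.52% of all tested genes were called in either direction, and none had an unadjusted p-value below 0.05. The family's median fold was 0.10, beside -0.11 over all tested genes, with a median standard error of 0.481. Mrps6, a protein at the edge of the small subunit's platform, had the most positive fold: 3.98 FPKM in NBM, 4.26 in BM, 3.48 in SPL, 1.29 in BL and 2.73 in AT gave 1.08 in AT against BL (SE 0.877, q = 0.445) in the authors' deposited table. It was called lower in BL against NBM and against BM, with no call left after centring, and in AT it was called against no group. The AT value of Mrps6 is poorly fixed, with deposited bounds from 0 to 5.58 FPKM. Mrpl14 had the most negative fold in AT against BL, -0.56 (SE 0.468, q = 0.465) in the authors' deposited table.

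**Figure D3:**
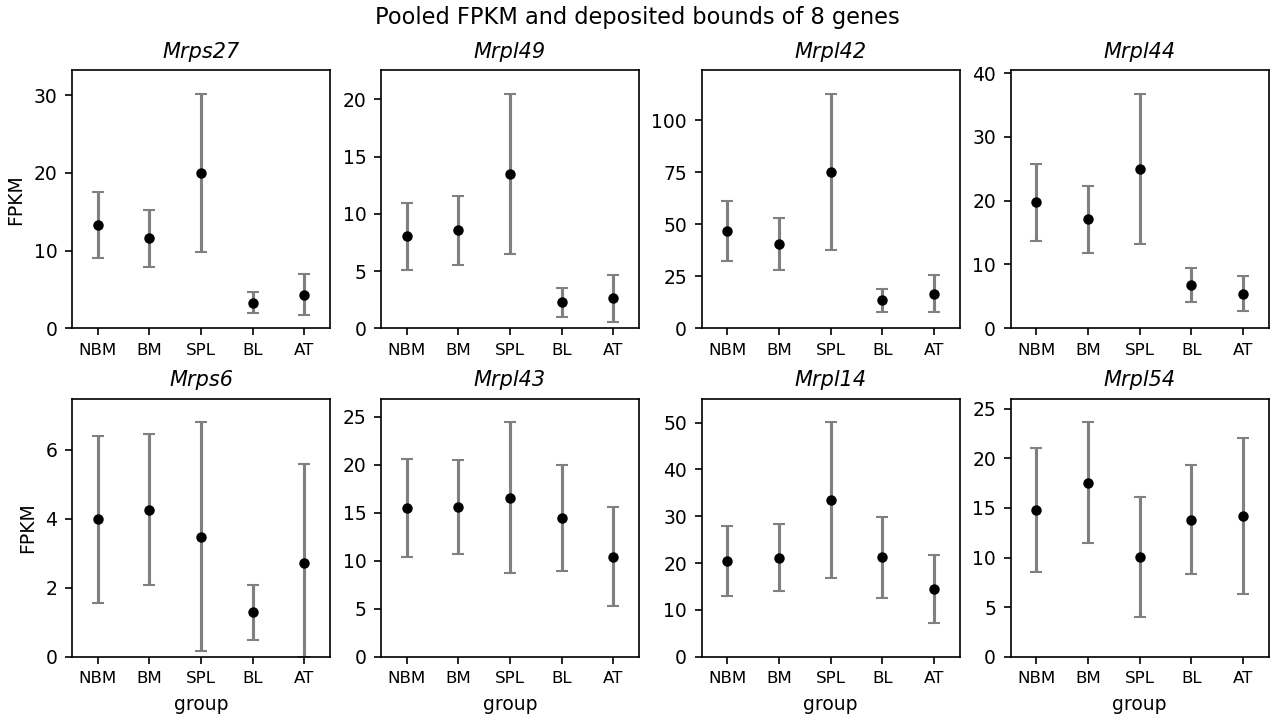
Pooled FPKM (points) with the bounds deposited by the authors (bars) in the 5 groups for 8 genes; each panel has its own linear axis from 0. The bars of BL and AT lie below those of NBM, BM and SPL for Mrps27, Mrpl49, Mrpl42 and Mrpl44, and overlap the others for Mrpl43, Mrpl14 and Mrpl54; for Mrps6 the AT bar reaches from 0 to 5.58 FPKM.

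Within the ribosome the lower calls were spread over both subunits. In BL against NBM, 28 of 47 large-subunit genes (59.6%) and 17 of 29 small-subunit genes (58.6%) were called lower in the authors' deposited table, with medians of -1.09 and -1.14. In BL against SPL the counts were 35 of 47 (74.5%) and 16 of 29 (55.2%), with medians of -1.58 and -1.50, and the difference between the subunits was not tested. With Mrps30 and Mrps18a moved to the large subunit, the counts were 29 of 49 and 16 of 27 in BL against NBM and 36 of 49 and 15 of 27 in BL against SPL. Genes whose number names a bacterial counterpart (L1 to L36 and S1 to S21, 44 genes) and mitochondria-specific genes (the other 32) had 26 (59.1%) and 19 (59.4%) lower calls in BL against NBM. In AT against NBM they had 14 (31.8%) and 11 (34.4%). Over all tested genes, 22.9% were called lower in BL against NBM, 23.1% in BL against SPL and 15.5% in AT against NBM. Across the 76 genes, which share the same libraries, the fold in BL against NBM had a Spearman rho of 0.098 with the log2 mean level and of -0.24 with the fragments per FPKM unit, a measure that grows with transcript length.

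A group of 15 genes was called lower in all 6 comparisons of BL or AT with NBM, BM and SPL, where 6.18% of the genes tested in all 6 were: Mrpl16, Mrpl19, Mrpl22, Mrpl35, Mrpl36, Mrpl42, Mrpl44, Mrpl49, Mrpl50, Mrpl51, Mrps5, Mrps11, Mrps17, Mrps27 and Mrps31. A further 6 were called in 5, 15 in 4, 9 in 3, 4 in 2 and 8 in 1, and 19 in none. The shares of all genes with these lower numbers of calls were not computed. The stalk brings translation factors to the ribosome. Of its proteins, not listed in full here, Mrpl12 was called in 4 of the comparisons, Mrpl11 in 5 and Mrpl10 in 3. Mrpl12 had 31.9 FPKM in NBM, 28.2 in BM, 32.0 in SPL, 8.79 in BL and 13.3 in AT, about as high in NBM as in SPL, and its log2 fold in BL against NBM was -1.86 (SE 0.364, q = 9.16e-06) in the authors' deposited table. Around the exit tunnel, Mrpl22 was called in 6, Mrpl23 and the membrane anchor Mrpl45 in 4 each, and Mrpl24 in none. In the central protuberance, Mrpl18 was called in 5, Mrpl46 in 4, Mrpl40 in 3, Mrpl27 and Mrpl48 in 1 each, and Mrpl38 and Mrpl52 in none.

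The head-to-head neighbours Mrps11 and Mrpl46 were both called lower in BL. Mrps11 had 10.4 FPKM in NBM, 10.2 in BM, 17.8 in SPL, 4.46 in BL and 4.42 in AT. Mrpl46 had 19.3, 17.4, 27.4, 8.93 and 10.1 FPKM. Both were highest in SPL and low in BL and AT. The log2 folds in BL against NBM were -1.23 for Mrps11 (SE 0.384, q = 0.0103) and -1.11 for Mrpl46 (SE 0.370, q = 0.0175) in the authors' deposited table. Neither call remained after centring.

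A few members did not follow the family. Mrpl54 had 14.8 FPKM in NBM, 17.5 in BM, 10.03 in SPL, 13.8 in BL and 14.2 in AT, with SPL lowest. Mrpl43 had 15.5, 15.6, 16.6, 14.5 and 10.4 FPKM, and Mrpl38 had 2.64, 3.25, 2.68, 2.45 and 2.39 FPKM. The deposited bounds of all 5 groups overlapped for these genes, and their log2 folds in BL against NBM were -0.10 each in the authors' deposited table, none of them called. Mrpl14, a protein at the face between the subunits, had 20.4 FPKM in NBM, 21.2 in BM, 33.4 in SPL, 21.2 in BL and 14.4 in AT. It stood at the NBM level in BL and lowest in AT, with overlapping bounds. Mrps15 was called in no comparison and had its highest level, 1.65 FPKM, in NBM and its lowest, 0.806 FPKM, in SPL. Among genes with a mean of 1 FPKM or more, Mrpl38, Mrpl43, Mrpl54, Mrps21 and Mrps18c had the narrowest ranges (highest over lowest group 1.36 to 1.93), and Mrps27, Mrpl49, Mrpl42, Mrps28 and Mrps5 the widest (5.13 to 6.08).

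The other proteins of mitochondrial translation were read beside the family. The list of mitoribosomal proteins without an Mrp symbol held 7 genes, among them Oxa1l, which encodes a membrane insertase and not a ribosomal protein. Of the 7, 2 were called lower in BL against NBM and in AT against NBM, Ptcd3 and Chchd1. Over all tested genes 22.9% and 15.5% were called lower in these comparisons. Ptcd3, a pentatricopeptide repeat protein of the small subunit, had 10.2 FPKM in NBM, 3.00 in BL and 4.02 in AT, and its log2 fold in BL against NBM was -1.76 (SE 0.358, q = 2.15e-05) in the authors' deposited table. Both genes stayed called in BL and neither in AT after centring. Of 12 translation factors, 3 were called lower in BL and 2 in AT, shares close to the 22.9% and 15.5% of all tested genes. Tufm, the elongation factor that brings aminoacyl-tRNA to the ribosome, had 22.7 FPKM in NBM, 7.11 in BL and 7.80 in AT, with log2 folds of -1.67 and -1.54 in the authors' deposited tables, the latter not called after centring.

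Of 17 mitochondrial aminoacyl-tRNA synthetases, which charge tRNAs in the organelle, 10 were called lower in BL against NBM and 4 in AT against NBM, with medians of -1.29 and -1.12. Over all tested genes 22.9% and 15.5% were called lower in these comparisons. After centring, 5 of the 10 calls in BL and none of those in AT remained, where 14% and 6.56% of all tested genes were called lower. Of 23 genes for ribosome assembly and rRNA modification, 7 were called lower and 1 higher in BL, where 22.9% of all tested genes were called lower and 11.5% higher. In AT 8 were called lower, where 15.5% of all tested genes were. Rnmtl1, an rRNA methyltransferase, had 5.14 FPKM in NBM, 0.763 in BL and 1.76 in AT (log2 folds -2.75 and -1.55 in the authors' deposited tables, the latter not called after centring). Ddx28, an RNA helicase of large-subunit assembly, went the other way, with 0.354 FPKM in NBM, 1.55 in BL and 1.08 in AT. Its log2 fold of 2.13 in BL against NBM was called higher in the authors' deposited table. In AT its log2 fold of 1.61 was not called there (q = 0.0564), and it was called higher after centring.

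Of 14 genes for transcription and handling of mitochondrial nucleic acids, 4 were called lower in BL and 4 in AT against NBM, beside 22.9% and 15.5% of all tested genes. Tfam, which packages mitochondrial DNA and starts its transcription, had 3.55 FPKM in NBM, 1.23 in BL and 1.57 in AT (log2 folds -1.53 and -1.17 in the authors' deposited tables, the latter not called after centring). Of 7 tested nuclear regulators, 4 were called lower in BL and 3 in AT, beside the same 22.9% and 15.5% of all tested genes. Myc, a driver of ribosome and mitochondrial biogenesis, had 39.2 FPKM in NBM, 5.90 in BL and 11.1 in AT. Its log2 folds of -2.73 and -1.82 in the authors' deposited tables were both called with and without centring. Gabpa and Yy1, whose proteins bind ETS and YY1 sites, were not called in any comparison, and their log2 folds in BL against NBM were -0.71 and -0.24 in the authors' deposited table.

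Cytosolic ribosomal proteins, which build the ribosomes outside mitochondria, were read the same way. Of 77 tested cytosolic ribosomal protein genes, 34 were called lower in BL against NBM and 1 in AT against NBM, with medians of -0.86 and -0.76 in the authors' deposited tables. Over all tested genes 22.9% and 15.5% were called lower, with medians of -0.36 and -0.46. After centring 1 of the 34 remained, Rpl22, beside 22 of 45 in the mitochondrial family, and the difference between the lists was not tested. Of all tested genes, 14% were called lower in BL against NBM after centring. Cytosolic ribosomal protein genes have many processed pseudogenes, so their counts are less certain. By symbol, 80 tested nuclear genes were taken as subunits of oxidative phosphorylation. Of these, 18 were called lower in BL against NBM, close to the 22.9% of all tested genes, and 1 was called higher. In AT against NBM 4 were called lower, beside 15.5% of all tested genes. The 4 include Atp5sl, whose symbol matched although its protein is not itself a subunit. After centring 2 lower calls were left in BL, Atp5g1 and Ndufa12. No subunit encoded in mitochondrial DNA was found by its symbol, so the products of this ribosome were not analysed here. In AT against BL no gene of any of these 8 lists was called in the authors' deposited Cuffdiff tables.

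**Figure D4:**
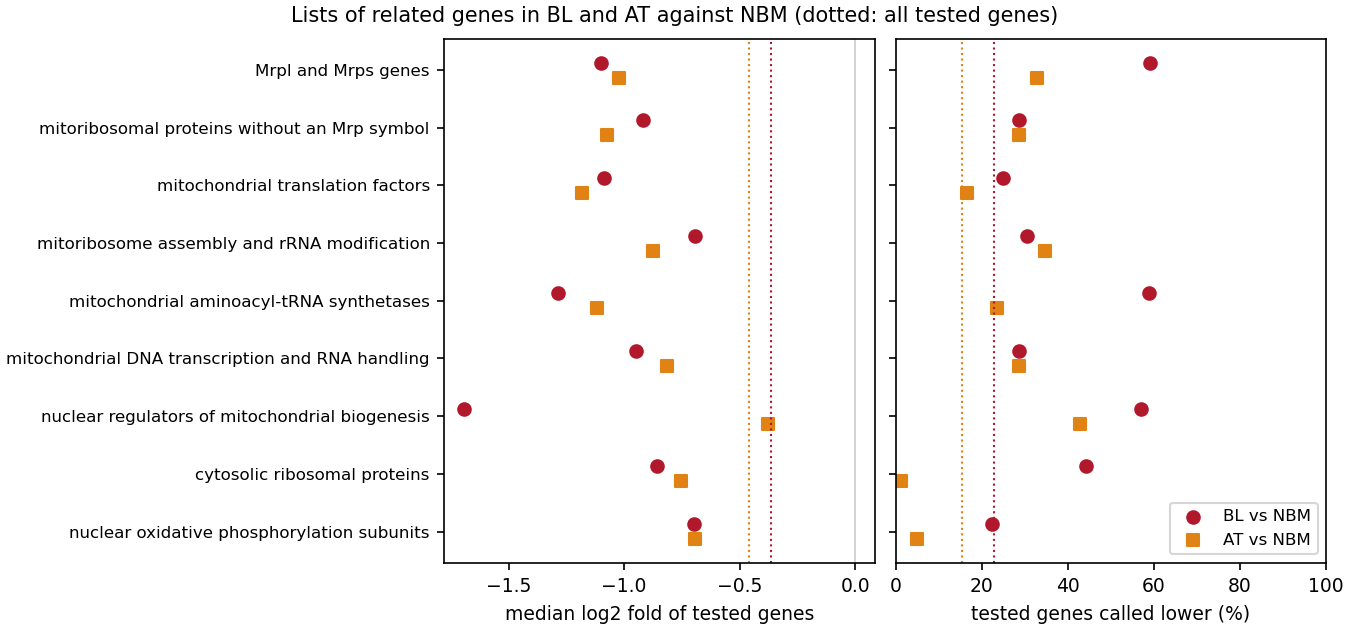
Median log2 fold of tested genes (left) and percentage of tested genes called lower (right) for the Mrpl and Mrps genes and 8 related lists, in BL against NBM (red circles) and AT against NBM (orange squares); dotted lines give the same over all tested genes. The medians of all 9 lists lie below 0, and cytosolic ribosomal proteins have calls in BL (34 of 77) but hardly any in AT (1 of 77).

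Levels of cell type markers also differed between the groups. Of 5 stem and progenitor markers (Kit, Cd34, Meis1, Hoxa9 and Gata2), the summed level was 59.5 FPKM in NBM, 53.9 in BM, 37.8 in SPL, 20.4 in BL and 19.6 in AT. Cd34 made most of the NBM sum (39.97 FPKM), and the members did not move alike: Hoxa9 had 0.771 FPKM in NBM, 2.78 in BL and 2.63 in AT, and in BL against NBM 2 of the 5 were called lower and 1 higher. The 6 neutrophil markers summed to 1557, 866, 681, 1126 and 3946 FPKM in the same order, highest in AT, and 6 macrophage markers to 57.7, 49.2, 34.7, 195 and 80.8, highest in BL. Emr1 (122 FPKM) and Csf1r (54.2 FPKM) made most of the BL sum, while C1qa, C1qb and C1qc were highest in NBM. The 5 erythroid markers summed to 105, 851, 1069, 2386 and 684 FPKM, with most of it from hemoglobin genes, and the 3 T cell markers to 32.0, 1.12, 4.25, 1.20 and 0.529. The 3 B cell markers summed to 4.54, 0.451, 7.65, 2.04 and 0.229 FPKM, and 4 endothelial markers to 13.5, 11.0, 8.05, 24.2 and 13.8, nearly all of it Pecam1. All 4 hematopoietic markers found (Ptprc, Itgam, Kit and Cd34) were above 1 FPKM in each group. The 5 stromal markers summed to 26.6 FPKM in AT, of which Dcn gave 20.96, and to between 0.189 and 1.58 elsewhere. The 4 adipocyte markers were near 0 throughout, with a highest sum of 0.303 FPKM in AT. Whether these differences have a part in the lower levels of the family was not tested. With 1 pooled value per group, a different make-up of the samples cannot be told apart from a change within the labelled cells.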

How the data were processed

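RNA-seq libraries were made with low-input SMARTer chemistry and Nextera XT, per the labels' protocols. Trimmomatic 0.32, Cufflinks 2.0.2 and Cuffdiff (version not given) on mm10 are named per the submitters' processing notes, while aligner and annotation are each not given in the sources used here. What the authors deposited is 1 pooled FPKM per gene and group with its bounds, and 1 estimated count per gene and group on Cuffdiff's common scale. The authors also deposited, for each of the 10 pairs, a log2 fold with its statistic, p-value and q-value. Recomputed Benjamini-Hochberg values over the 10 pairs together matched the deposited q-values to within 1.70e-06. Estimated counts totalled 8.96e+06 in SPL and 1.65e+07 to 1.96e+07 in the other groups, and members had a median of 465 to 979 per group.

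Folds were oriented as first group over second, and the standard error is the fold divided by its test statistic. No test of replicates was computed, since values per library were not used here, which replaced a planned count test. Alternatives were centred folds, upper quartile and total count scaling, a stricter q, adjustment within a comparison, a filter at 1 FPKM and leaving out merged entries (105, none of them a member). The recalculation of calls was tested on simulated data. The members and lists were chosen with earlier results of these data known. Members were named by level, number of calls, extreme folds and range. Mrpl11, Mrpl12, Mrpl23, Mrpl24, Mrpl27, Mrpl41, Mrpl45, Mrpl46, Mrpl48 and Mrps16, Gabpa, Yy1 and the genes given to complete a count were named after their values were seen. From each list of related genes up to 4 with the smallest q-values could be named. Python 3.11.15, pandas 2.3.3 and SciPy 1.17.1 were used.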

Additional observations from a re-analysis of the deposited data

How the results depend on the processing

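No paired analysis was possible because the deposited columns are pooled over the 3 libraries of a group, and for the same reason no library could be left out. The counts of called members that moved by more than 1.5 times did so under scaling or a stricter threshold, always to fewer calls. In BL against NBM, 45 lower calls became 22 after centring on the median of all tested genes, 22 under upper quartile scaling and 26 at q below 0.01. In BL against BM, 42 became 19 after centring and 17 under upper quartile scaling, and in BL against SPL, 51 became 29 under upper quartile scaling. In AT against NBM, 25 became 2 after centring, 1 under upper quartile scaling, 7 under total count scaling and 6 at q below 0.01. In AT against BM, 18 became 1, 1, 3 and 3, and in AT against SPL, 42 became 12, 9, 12 and 22, in the same order. Of 223 calls of single members, 92 remained after centring, 79 under upper quartile scaling and 138 under total count scaling, and none changed direction. The 4 comparisons with no member called stayed at 0 under each alternative run. For the lists of related genes, scaling was tried after the data were seen: translation factors went from 3 to 2 lower calls in BL against NBM after centring, and regulators from 3 to 1 in AT against NBM. Taco1 and Gabpb1 were not called in BL against NBM after centring. The smallest fold called among members was 0.93 on the log2 scale in BL against NBM and 1.11 in AT against NBM, but folds of up to 1.25 and 1.26 were not called in the same comparisons, since the standard error differed between genes.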

Other observations

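Among the 76 genes, 32 have a protein-coding neighbour that starts within 1000 bases on the other strand in GENCODE M21. Of the 30 neighbours outside the family, matched also by older symbols, 27 were tested. In BL against NBM, 13 of the 27 were called lower and 2 higher, with a median log2 fold of -1.10, beside -1.26 for the family members of these pairs. Over all tested genes 22.9% were called lower and 11.5% higher in this comparison, with a median of -0.36. In AT against NBM, 6 were called lower and 2 higher, with a median of -0.99. There 15.5% of all tested genes were called lower, and 1060 of 13346 were called higher, with a median of -0.46. Some pairs were called together: Mrpl51 (-1.23) and Ncapd2, a condensin subunit (-2.69), and Mrps27 (-2.02) and Ptcd2, a mitochondrial RNA-binding protein (-1.26), in the authors' deposited table of BL against NBM. Others were not: Mrpl49 was at -1.83 while Fau, whose product includes the cytosolic ribosomal protein S30, was at -0.26 and was not called in the same table, with 188 FPKM in BL and 226 in NBM. Mrpl43 was at -0.10 and was not called, while Peo1 (now Twnk), the mitochondrial DNA helicase, was at -2.17 and was called lower in the authors' deposited table. Mrpl2 was called lower (-1.08) and its neighbour Klc4, a kinesin light chain, higher (1.23) in the authors' deposited table. Mrpl14 was not called, while its neighbour Tmem63b rose from 0.133 to 0.789 FPKM (log2 fold 2.57, called higher in the authors' deposited table). The neighbours' calls were not recomputed under other scalings, and these pairs were picked after their values were seen.

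Mrp63, the family member with an older symbol, had 3.16 FPKM in NBM, 3.94 in BM, 3.68 in SPL, 1.86 in BL and 1.82 in AT. It was called lower in BL against BM (log2 fold -1.08, q = 0.0231 in the authors' deposited table) and in no other comparison.

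Members with the YY1 core in their promoter window had a median log2 fold of -1.33 in BL against NBM, and members without it -1.05. For the ETS motif the medians were -0.94 with and -1.17 without, and for the NRF1 core -0.82 with and -1.11 without. These are descriptions without a test.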
